A study of Mus musculus with 3 samples.

Results

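The genes described here are 33 mouse genes of the interferon response and of antigen presentation, followed across the cell types and the 3 genotypes of a single-cell RNA data set of newborn cortex. They are a fixed list, matched by symbol to the gene names in the deposited files, and all 33 were found among the 27998 genes measured. Of them, 27 belong to the interferon response: 4 transcription factors, 2 RNA sensors, 13 antiviral effectors, 3 Ifitm membrane proteins, 3 regulators and 2 guanylate-binding proteins. The other 6 serve antigen presentation by major histocompatibility complex (MHC) class I.

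Dorsal cortex of pups was taken at postnatal day 2 and profiled as droplet-based 10x Genomics libraries, 1 library for each genotype. Mutants with Emx1-Cre or hGFAP-Cre had floxed alleles of Map2k1 and Map2k2, genes of the ERK-activating kinases MEK1 and MEK2, together with that Cre, and the control had the floxed alleles with no Cre named, although another label of it reads wild type. Emx1-Cre acts in cortical progenitors of excitatory neurons and glia from early in their lineage, and Cre under the human GFAP promoter acts in radial glia at a later stage, so microglia and vessel cells, which have another origin, lie outside both lineages. All groups received FlashTag, a dye that labels cells dividing at the ventricle, at embryonic day 18, and cells positive for tdTomato were sorted after papain digestion. The labels do not name the allele that carries tdTomato, and they give no number of animals per library.

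Type I interferons bind a receptor that signals through JAK kinases to a transcription factor complex with STAT2 and IRF9, which binds a DNA element, the interferon-stimulated response element, in the promoters of many antiviral genes. Interferon gamma has a receptor of its own and is a strong inducer of the MHC class I genes and of their peptide supply. In healthy brain, microglia, the resident macrophages, are known to hold the class I genes at a steady level, while neurons and astrocytes hold them low. BST2 tethers budding virus to the cell surface, IFITM proteins block virus entry at membranes, and ISG15 is a ubiquitin-like protein attached to newly made proteins.

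The element's core, GAAA followed after any 2 bases by GAAA, on either strand, was searched in the 300 bases from 250 before to 50 after each gene's RefSeq start (GRCm38.p6). It was found in 14 of the 34 promoters of the 29 members that have an entry (41.2%), against 1131 of all 32851 promoters (3.44%), and these 14 belong to 14 different members. Rtp4, Ifi27, Usp18 and Parp14 have no entry. The 6 promoters below are shown because their genes carry the results that follow, apart from Ifit1, a classic interferon target that was close to 0 in most cell classes here. The capitals mark the core matches, which overlap one another in Bst2 and Isg15 and read TTTC in Ifit1, where they lie on the other strand. Each stretch is written 5′ to 3′ on the gene's strand and ends at the last base before the RefSeq start, except that of Ifitm3, which begins 1 base before it.
Bst2, chr8:71537473-71537622, minus strand: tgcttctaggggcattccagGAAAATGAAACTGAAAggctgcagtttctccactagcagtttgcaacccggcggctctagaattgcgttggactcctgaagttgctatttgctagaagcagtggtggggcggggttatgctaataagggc
Isg15, chr4:156200819-156200968, minus strand: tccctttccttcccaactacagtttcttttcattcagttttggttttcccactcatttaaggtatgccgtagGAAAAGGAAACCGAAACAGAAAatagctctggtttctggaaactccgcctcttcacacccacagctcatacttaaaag
Ifit1, chr19:34640739-34640888, plus strand: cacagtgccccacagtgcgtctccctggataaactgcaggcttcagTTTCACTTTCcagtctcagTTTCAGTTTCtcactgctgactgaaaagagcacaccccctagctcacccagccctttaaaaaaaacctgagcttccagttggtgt
Ifitm2, chr7:140955962-140956111, minus strand: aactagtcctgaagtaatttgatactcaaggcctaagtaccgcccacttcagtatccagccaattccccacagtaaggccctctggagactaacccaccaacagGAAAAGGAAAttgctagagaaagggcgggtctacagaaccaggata
B2m, chr2:122147537-122147686, plus strand: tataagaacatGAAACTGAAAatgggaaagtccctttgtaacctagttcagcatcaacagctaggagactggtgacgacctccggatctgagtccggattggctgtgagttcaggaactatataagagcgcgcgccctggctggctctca
Ifitm3, chr7:141010716-141010745, minus strand: cagGAAAAGGAAActtctgaGAAACCGAAA

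Stat2, Ifih1, Ddx58, Ifit3, Oas1a, Rsad2, Gbp2 and Gbp3 also held the core. A match describes letters in a window and no more.

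The libraries held 13214 barcodes in the Emx1-Cre mutant, 13139 in the hGFAP-Cre mutant and 11886 in the control, with 84016524, 89917586 and 85480826 unique molecular identifiers (UMIs, each a counted transcript molecule). After filtering, 12224, 12029 and 9510 cells were kept, with a median of 4991.5, 5314 and 6427 UMIs, and 27 to 42 kept barcodes were shared between any pair of libraries. The female-specific RNA Xist was at 0.162 and 0.952 CPM (a gene's UMIs scaled by all UMIs of the library, on the usual CPM scale) in the Emx1-Cre and hGFAP-Cre libraries, against 1460 in the control, and the Y-linked Ddx3y was at 37.3 and 45.6 CPM in the mutants, against 0 in the control, so sex differed with genotype in every comparison below and cannot be told apart from it. Map2k1 stood at 13.8, 16.3 and 16.6 CPM in the Emx1-Cre, hGFAP-Cre and control libraries; these 3′ tags need not lie in the deleted part and do not check the deletion. Prm1, a protamine gene, was at 566 CPM in the hGFAP-Cre library, with the Emx1-Cre mutant at 0.0406 CPM and the control at 0. Cells were clustered without the 33 genes, and 30 of 32 clusters were named from markers in 10 classes, each called X-like. CPM below is a gene's count among all UMIs of the class in that library. Since each genotype has 1 library, there is no replicate and no test; the 95% intervals cover counting error only, and differences between animals or between sorts are not covered.

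The members were unevenly spread over the cell classes. In the control, all 6 class I genes were highest in microglia-like cells. B2m, the light chain that every class I molecule needs, was there at 1148 CPM in the Emx1-Cre mutant, 967 in the hGFAP-Cre mutant and 973 in the control. Projection neuron-like cells, the largest class, held the 6 genes together at 29.2, 39.0 and 42.0 CPM. The 3 Ifitm genes, which neighbour one another on chromosome 7 (140954837 to 141010770 in GRCm38), were highest in mural-like cells, the contractile and pericyte cells of vessels. Bst2, Isg15, Irf7, Irf9, Ddx58, Xaf1, Trim25, Gbp3 and Rtp4 had their highest control level in endothelial-like cells. Ifitm2 and H2-D1 reached 10 CPM in all 10 classes, and Ifit1, Oas1a and Usp18 in 0 of 10.

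**Figure D1:**
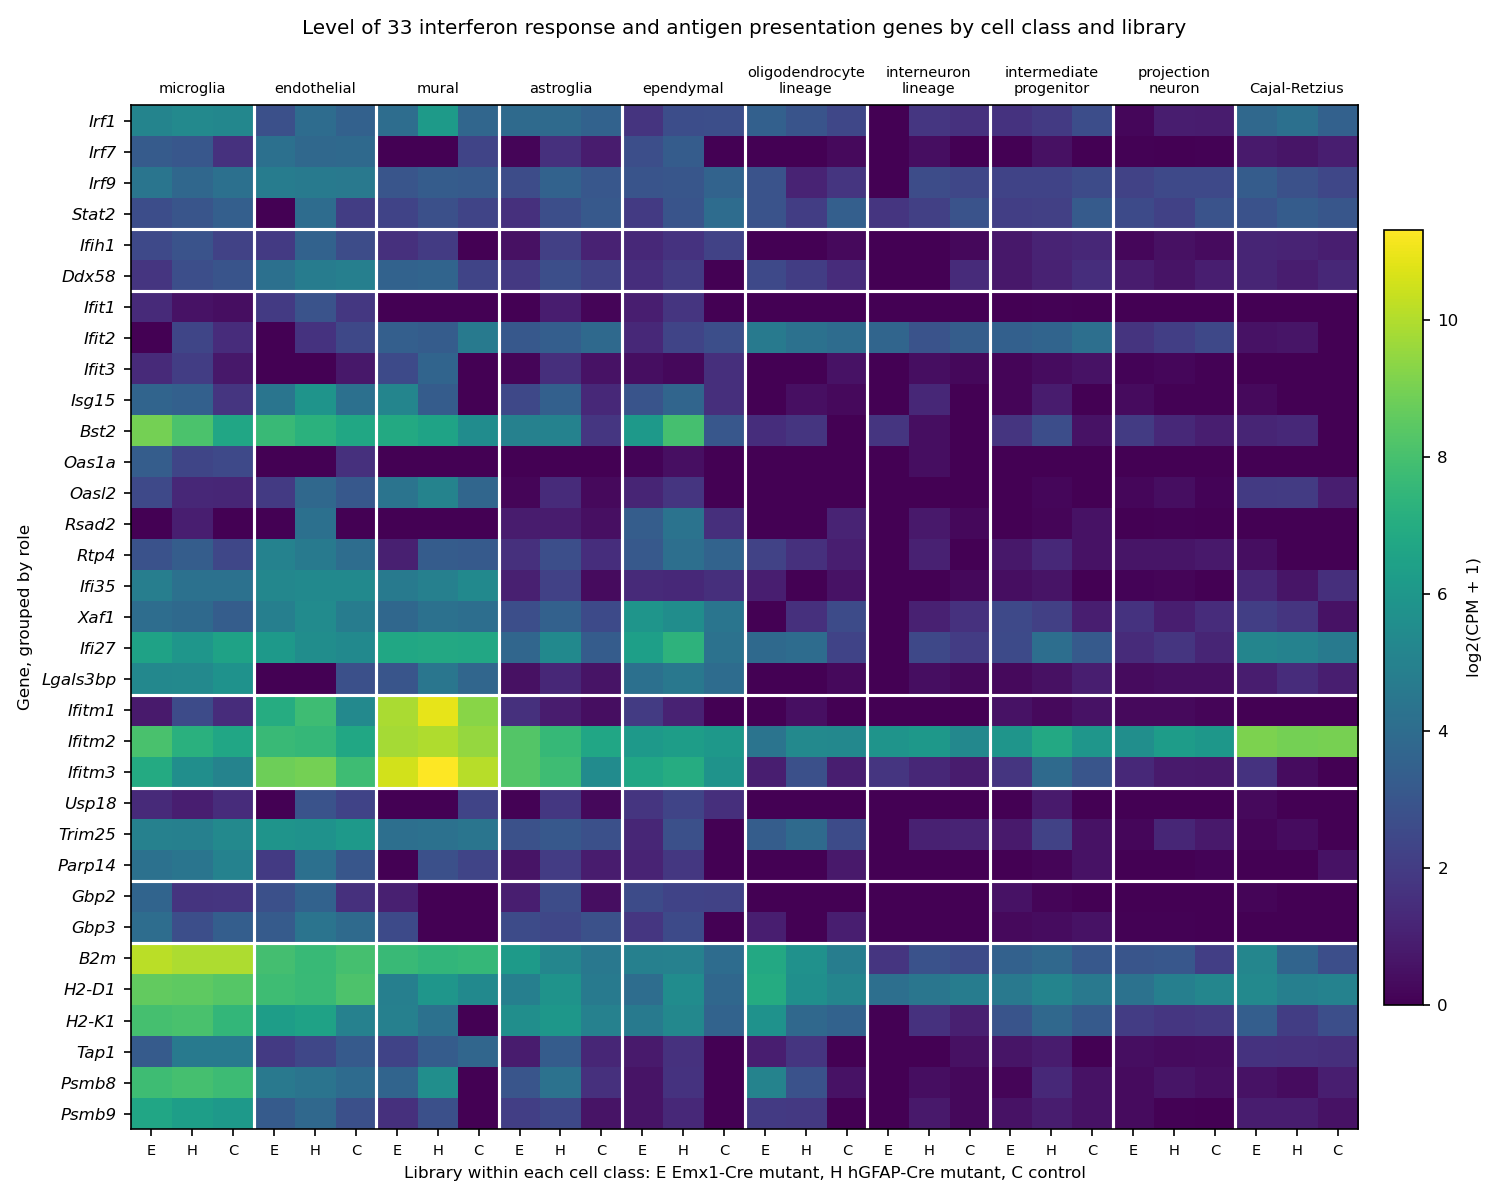
Level of each of the 33 genes (rows, grouped by role) as log2(CPM + 1) in each of 10 cell classes, with the Emx1-Cre mutant (E), hGFAP-Cre mutant (H) and control (C) side by side. The class I genes at the bottom are brightest in microglia-like cells, and Ifitm1, Ifitm2 and Ifitm3 in mural-like cells, where Ifitm3 stood at 1495, 2555 and 1087 CPM.

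Summed over the 27 interferon response genes, both mutants were above the control in microglia-like, endothelial-like, mural-like, astroglia-like and ependymal-like cells, with intervals of the ratio above 0. In oligodendrocyte lineage-like cells the log2 ratio was 0.16 (-0.16 to 0.47) in the Emx1-Cre mutant and 0.29 (0.07 to 0.52) in the hGFAP-Cre mutant. The neuron classes were mixed, with excitatory intermediate progenitor-like cells at 97.7 CPM in the Emx1-Cre mutant and 185 in the hGFAP-Cre mutant, against 120 CPM in the control. That class was made of different cells in each library: cluster 0 held 1191 of 2007, 1397 of 3021 and 33 of 211 of its cells. In microglia-like cells the sum was 1241 CPM in the Emx1-Cre mutant (95% interval 1181 to 1303) and 776 CPM in the hGFAP-Cre mutant (739 to 814), against 590 CPM in the control (562 to 618). In astroglia-like cells it was 725 CPM (712 to 738) and 596 CPM (584 to 609) in the 2 mutants, against 225 CPM in the control (220 to 231); their log2 ratios over the control were 1.69 and 1.40. Endothelial-like cells had 1317 and 1512 CPM in the Emx1-Cre and hGFAP-Cre mutants, against 816 CPM in the control. In projection neuron-like cells the sums were 69.6, 96.4 and 87.8 CPM, with the Emx1-Cre mutant lowest. This class differed in makeup too, with 35 of 4669, 103 of 3590 and 2209 of 4839 cells in cluster 2.

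Over all kept cells, whose makeup differed between the libraries, 6 of 9 members measured were higher and 0 lower in the Emx1-Cre mutant, against 11.5% and 18.9% of all genes, where higher and lower mean a 1.5-fold difference at 10 CPM or more. The same counts held in the hGFAP-Cre mutant, against 9.22% and 12.2%.

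The antigen presentation sum separated the libraries in fewer classes. Microglia-like cells held 2119 CPM in the Emx1-Cre mutant and 1944 in the hGFAP-Cre mutant, against 1781 CPM in the control, log2 ratios of 0.25 (0.18 to 0.32) and 0.13 (0.07 to 0.18). The Emx1-Cre ratio turned to -0.042 among cells with at least 2000 genes. Astroglia-like cells held 157 and 186 CPM, against 80.8 CPM in the control. Oligodendrocyte lineage-like cells held 327 CPM in the Emx1-Cre mutant and 125 in the hGFAP-Cre mutant, against 72.9 CPM in the control. Endothelial-like cells held 580, 531 and 595 CPM, with intervals that overlapped.

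**Figure D2:**
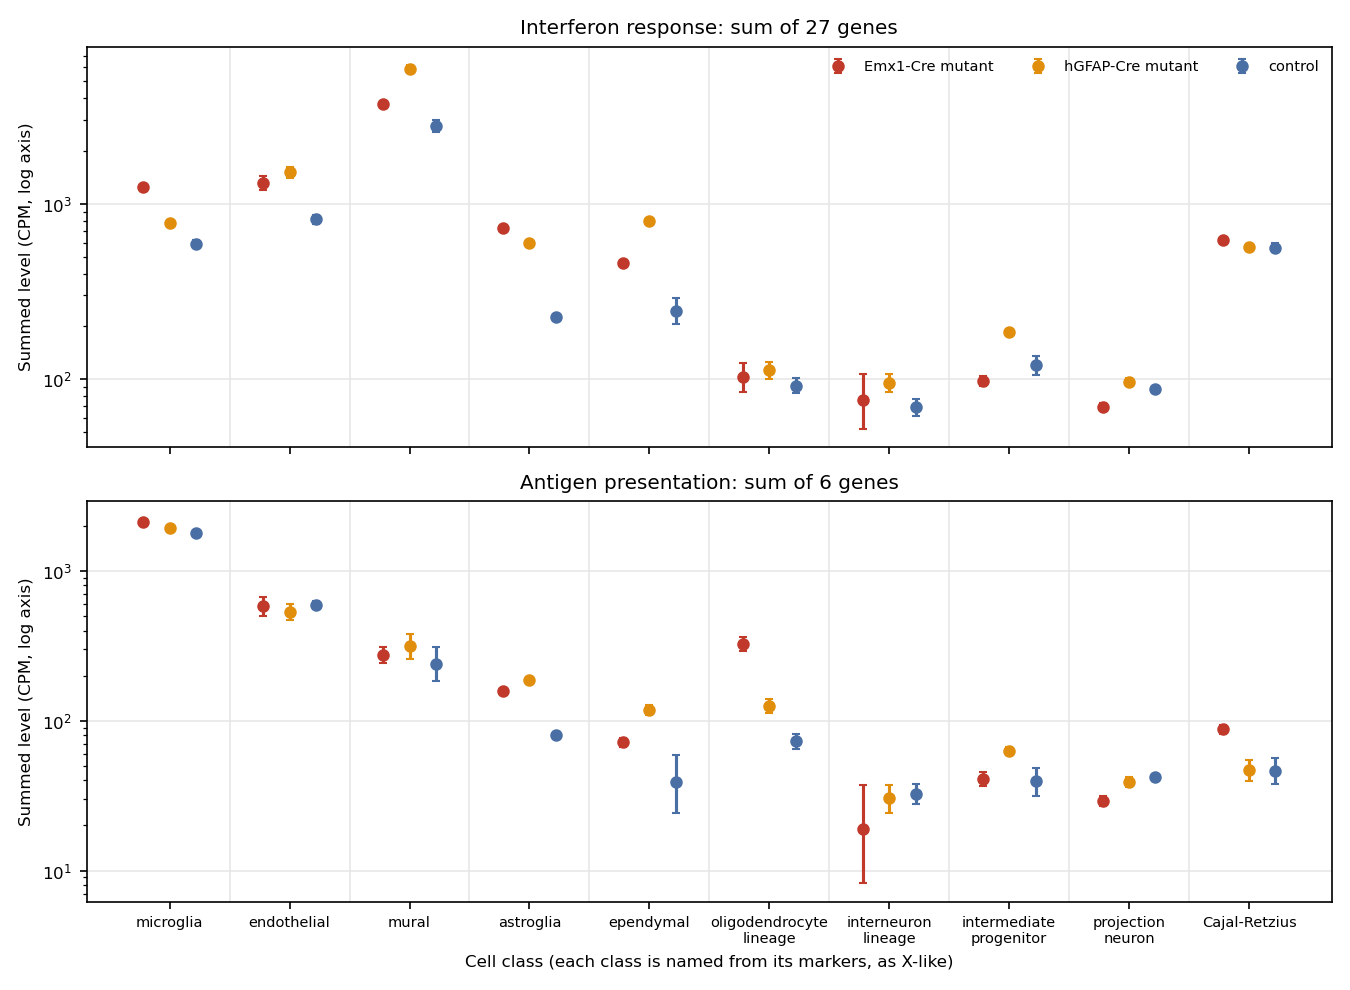
Summed CPM (log axis) of the 27 interferon response genes (top) and the 6 antigen presentation genes (bottom) in each cell class, for the Emx1-Cre mutant, hGFAP-Cre mutant and control from left to right; bars are exact Poisson 95% intervals. In astroglia-like cells the interferon response sums of 725 and 596 CPM in the mutants stand above 225 CPM in the control, while the microglia-like antigen presentation sums of 2119, 1944 and 1781 CPM lie close together.

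Most of the interferon response sum came from 4 genes, Bst2, Ifitm1, Ifitm2 and Ifitm3, and these 4 were set aside after the values were seen. They carried 71.2% of the sum in microglia-like cells of the Emx1-Cre mutant and 61.2% in the hGFAP-Cre mutant, against 41.1% in the control. The other 23 genes together were at 357, 301 and 347 CPM in those cells, log2 ratios of 0.042 (-0.12 to 0.20) and -0.21 (-0.35 to -0.06) over the control. In astroglia-like cells the other 23 genes were at 71.8 CPM in the Emx1-Cre mutant, against 77.3 CPM in the control, a log2 ratio of -0.11 that runs opposite to that of the whole sum. In the hGFAP-Cre mutant they were at 151 CPM, against 77.3 CPM in the control, a log2 ratio of 0.96 (0.88 to 1.05).

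In microglia-like cells (241, 306 and 246 cells in the Emx1-Cre, hGFAP-Cre and control libraries), Bst2 differed most among the members measured, and of the class I genes Tap1 alone was past 1.5-fold, in the Emx1-Cre mutant. A gene counted as measured when it was at 10 CPM or more in either library of a comparison, and as higher or lower from 1.5-fold on, with 5 CPM added to each value before the log2 ratio. Of the 33 members, 20 were measured in the Emx1-Cre comparison, with 5 higher and 2 lower; of all 7963 genes measured there, 11.3% were higher and 27.5% lower. In the hGFAP-Cre comparison 18 members were measured, with 2 higher and 0 lower, against 10.2% and 16.2% of all 7920 genes. That share of higher members, 2 of 18, is near the background. The members' median log2 ratios were 0.37 and 0.11, and those of all genes -0.21 and -0.07.

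Among the transcription factors in microglia-like cells, Irf1, a factor induced by interferon gamma, was at 33.1 CPM in the Emx1-Cre mutant, 38.9 in the hGFAP-Cre mutant and 37.1 in the control. Irf9, a DNA-binding partner of STAT2, was at 20.02, 12.8 and 16.9 CPM. Irf7, which amplifies type I interferon production, stayed under 10 CPM at 8.47, 7.33 and 2.03, and Stat2 at 5.39, 6.87 and 9.79. So none of these 4 factors was 1.5-fold apart at 10 CPM or more. The RNA sensors Ifih1 and Ddx58, which detect viral RNA in the cytoplasm, were between 2.31 and 6.75 CPM in all 3 libraries.

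Bst2 stood at 498 CPM in the Emx1-Cre mutant (461 to 538) and 279 CPM in the hGFAP-Cre mutant (258 to 302), against 104 CPM in the control (93.0 to 117). The 3 intervals did not overlap, and the log2 ratios were 2.20 and 1.38. Isg15 was at 11.6 CPM (6.46 to 19.1) and 10.1 CPM (6.32 to 15.3) in the mutants, against 2.36 CPM in the control (0.950 to 4.87). Both mutants thus lay above the control for the 2 effectors, although the Isg15 level rests on few molecules. Other effectors did not share this order. Ifi27, a small mitochondrial protein gene, was at 91.6, 60.5 and 90.2 CPM, and Lgals3bp, a secreted glycoprotein gene, at 37.7, 39.4 and 53.7 CPM.

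Several classic interferon targets were nearly silent in microglia-like cells of every library. Ifit1, which binds foreign RNA, was at 1.54, 0.458 and 0.338 CPM, and Rsad2, the antiviral enzyme viperin, at 0, 0.916 and 0 CPM. Ifit2 and Ifit3, of the same RNA-binding family, stayed at or under 4.12 CPM, and Oasl2, of the oligoadenylate synthetase family, at or under 4.62 CPM. Usp18, which removes ISG15 and damps the receptor, was at 1.54, 0.916 and 1.69 CPM. Counts of a few molecules in such genes do not separate the libraries.

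Of the Ifitm genes, Ifitm2 was at 266 CPM in microglia-like cells of the Emx1-Cre mutant (238 to 295) and 144 in those of the hGFAP-Cre mutant (128 to 161), against 104 CPM in the control (92.4 to 116). Ifitm3 was at 119 CPM (101 to 140) and 46.7 CPM (38.1 to 56.7), against 32.8 CPM in the control (26.6 to 40.0). The Emx1-Cre mutant was apart from both other libraries for each gene, with log2 ratios of 1.32 and 1.72 over the control. Both genes had, in the hGFAP-Cre mutant, a log2 ratio of 0.45, under the 1.5-fold limit. Gbp2, a GTPase that attacks pathogen vacuoles, was at 11.6 CPM in the Emx1-Cre mutant and 2.29 in the hGFAP-Cre mutant, against 2.36 CPM in the control. Gbp3, of the same family, was at 15.4, 5.50 and 9.46 CPM. The ubiquitin ligase gene Trim25 was at 30.03, 29.8 and 39.5 CPM, and Parp14, an ADP-ribosyl transferase gene, at 17.7, 20.2 and 31.7 CPM; Parp14 was called lower in the Emx1-Cre mutant, with intervals that overlapped.

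Among the class I genes of microglia-like cells, H2-D1, a heavy chain, was at 383 CPM in the Emx1-Cre mutant, 360 in the hGFAP-Cre mutant and 323 in the control. The other heavy chain gene, H2-K1, was at 252, 266 and 177 CPM, log2 ratios of 0.49 and 0.57. Psmb8 and Psmb9, subunits of the immunoproteasome that cuts peptides for display, were at 224, 248 and 217 CPM and at 103, 79.7 and 67.9 CPM. Tap1, part of the transporter that moves peptides to class I molecules, went the other way in the Emx1-Cre mutant, at 8.47 CPM (4.23 to 15.2), while the hGFAP-Cre mutant and the control were alike at 23.4 and 23.6 CPM. Its log2 ratio was -1.09 in the Emx1-Cre mutant. H2-K1 and H2-D1 are close in sequence, as are the Ifitm genes, so reads may be shared between them.

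**Figure D3:**
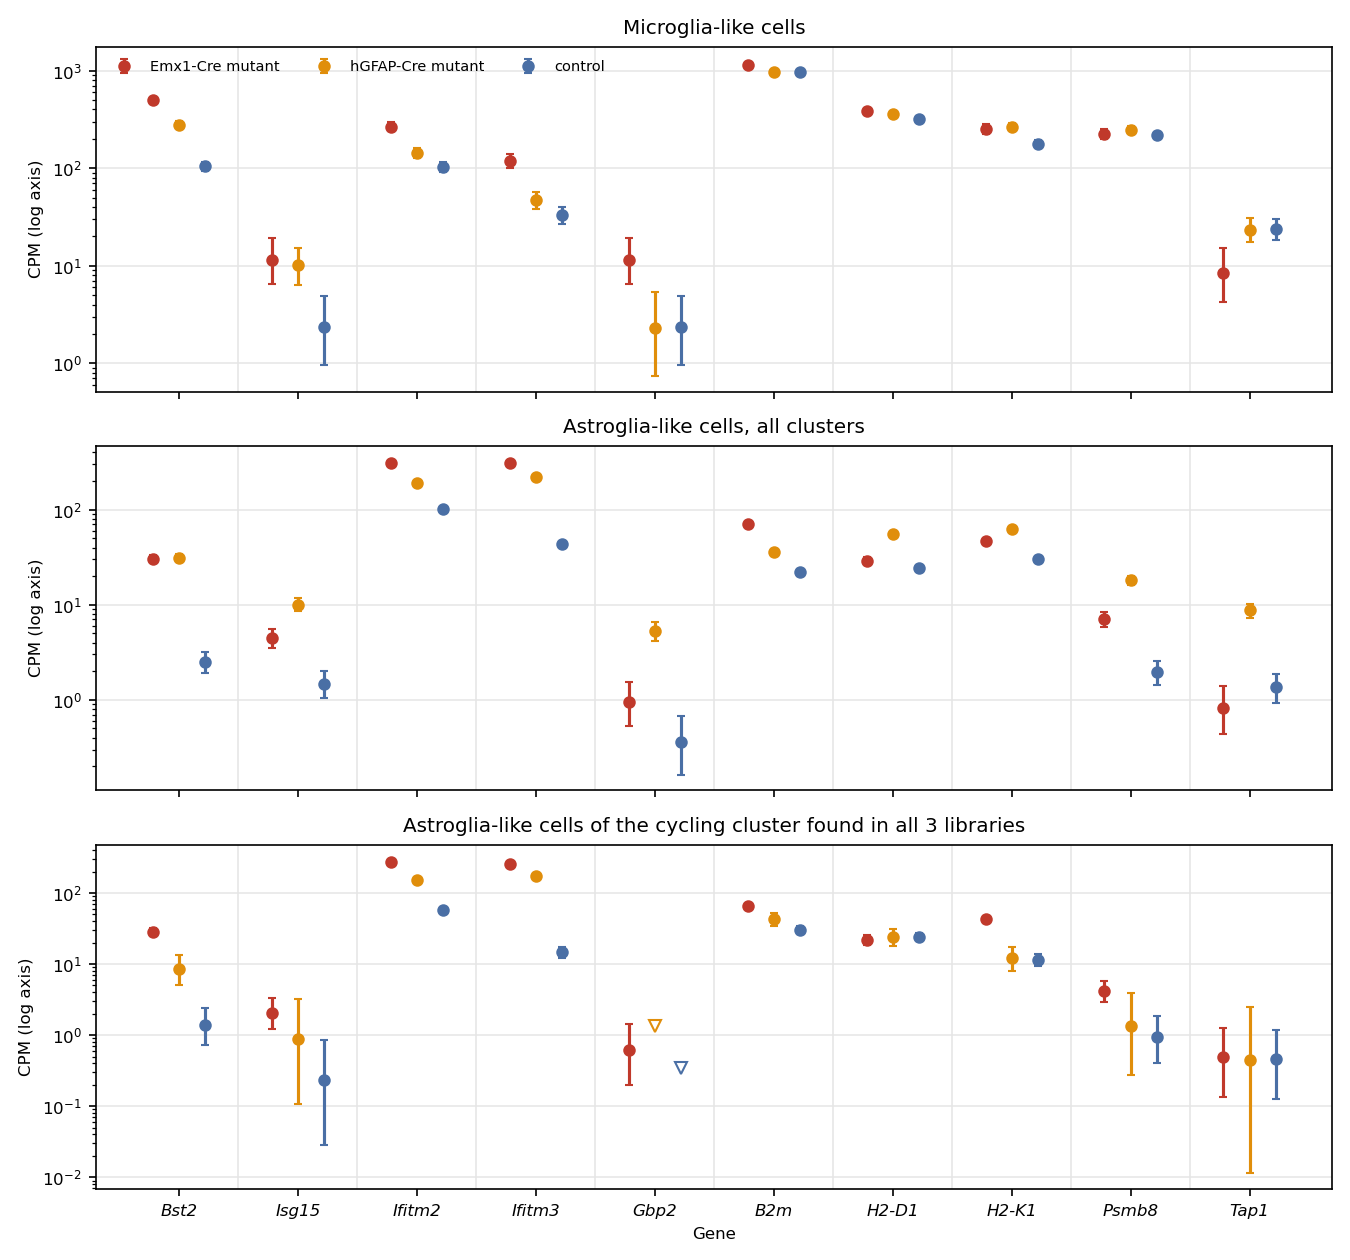
CPM (log axis) of 10 members in microglia-like cells, in all astroglia-like cells and in the cycling astroglia-like cluster, for the Emx1-Cre mutant, hGFAP-Cre mutant and control from left to right; bars are exact Poisson 95% intervals and open triangles mark the level of 3 counts where none was seen. Bst2 is at 498, 279 and 104 CPM in microglia-like cells and at 30.6, 31.2 and 2.50 CPM in astroglia-like cells.

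The microglia-like class was not made of the same cells in each library. At a finer clustering (resolution 2), 1 subcluster held 83 cells of the Emx1-Cre mutant, 219 of the hGFAP-Cre mutant and 243 of the control, and a second one, led by Rgs1, Lyz2, Gpnmb, Lgals3 and Apoc1, held 150, 80 and 0. Within the shared subcluster Bst2 was at 551 CPM in the Emx1-Cre mutant and 301 in the hGFAP-Cre mutant, against 105 CPM in the control, as far apart as in the whole class. Ifitm2 was at 310, 126 and 104 CPM there. Ifitm3 did not keep its difference: it was at 42.1, 30.2 and 32.6 CPM in the shared subcluster, and at 181 and 93.1 CPM in the second subcluster of the Emx1-Cre and hGFAP-Cre mutants. The class I sum of the shared subcluster was 1630, 1972 and 1788 CPM, with the Emx1-Cre mutant lowest. There 3 of 18 members measured were higher and 3 lower in the Emx1-Cre mutant, against 12.1% and 25.5% of all genes, and 4 of 19 higher and 1 lower in the hGFAP-Cre mutant, against 8.79% and 15.4%.

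Markers of other macrophages and leukocytes also differed between the libraries. Over the whole microglia-like class, all 10 microglia markers were present, summing to 13766, 17759 and 23404 CPM. The 8 border macrophage markers, all present in each library, summed to 1167 CPM in the Emx1-Cre mutant and 420 in the hGFAP-Cre mutant, against 273 CPM in the control, and in the shared subcluster to 1580, 441 and 274 CPM. Of 10 markers of other leukocytes 4 were seen in each library, summing to 61.6, 65.5 and 5.40 CPM. In the shared subcluster the markers of other leukocytes summed to 5.74, 3.85 and 5.43 CPM. The part of these marker lists in the Bst2 and Ifitm levels was not tested. The median microglia-like cell had 4755 UMIs in the Emx1-Cre mutant and 6489.5 in the hGFAP-Cre mutant, against 11137 in the control.

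In astroglia-like cells (1917, 2424 and 2513), Ifitm3, Ifitm2 and Bst2 were higher in both mutants, and the class I genes were higher in part. In the Emx1-Cre comparison 9 members were measured, 4 of them higher and 0 lower, against 6.99% higher and 29.6% lower among all 8780 genes. In the hGFAP-Cre comparison 13 were measured, 9 higher and 0 lower, against 10.4% and 14.2% of all 8980 genes. A member near the 10 CPM limit is measured more readily where 1 library is higher, so these counts describe the genes that passed, not all 33. The members' median log2 ratios were 0.56 and 0.95, and those of all genes -0.32 and -0.09.

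Ifitm3 was at 313 CPM in astroglia-like cells of the Emx1-Cre mutant (304 to 322) and 222 in those of the hGFAP-Cre mutant (215 to 230), against 43.5 CPM in the control (41.0 to 46.1), a 7.20-fold and a 5.11-fold difference. Ifitm2 was at 308 and 191 CPM, against 102 CPM in the control. Bst2 was at 30.6 CPM (27.9 to 33.4) and 31.2 CPM (28.5 to 34.1), against 2.50 CPM in the control (1.92 to 3.20). The mutants were alike in Bst2 and the control was 12.2-fold and 12.5-fold lower. Ifitm1, which neighbours Ifitm2, stayed at 1.94, 0.838 and 0.357 CPM.

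Other effectors separated the mutants from each other. Ifi27 was at 12.5 CPM in the Emx1-Cre mutant (10.8 to 14.3) and 40.9 in the hGFAP-Cre mutant (37.8 to 44.3), against 8.69 CPM in the control (7.58 to 9.92). Isg15 was at 4.44 and 10.1 CPM, against 1.47 CPM in the control, and Xaf1, a pro-apoptotic interferon target, at 5.63 and 10.3 CPM, against 4.76 CPM. For all 3 genes the hGFAP-Cre mutant was highest. Oas1a was at 0 in all 3 libraries, and Ifit1, Rsad2 and Ifit3 were under 2 CPM. Ifit2 was at 7.76, 9.41 and 13.5 CPM, lowest in the Emx1-Cre mutant.

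The factors and sensors of astroglia-like cells lay close together or low. Irf1 was at 14.0 CPM in each mutant, against 10.9 CPM in the control, and Irf9 at 5.13, 10.7 and 7.30 CPM. Stat2 was at 1.94, 5.61 and 8.06 CPM, and Ifih1 and Ddx58 reached at most 5.67 CPM. Gbp2 was at 0.939 and 5.29 CPM, against 0.357 CPM in the control, and Gbp3 at 5.07, 4.32 and 6.03 CPM. Usp18 was at 0.0626, 2.58 and 0.198 CPM.

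The class I genes of astroglia-like cells followed the 2 mutants differently. B2m was at 70.1 CPM in the Emx1-Cre mutant (66.0 to 74.3) and 35.5 in the hGFAP-Cre mutant (32.6 to 38.6), against 22.1 CPM in the control (20.3 to 24.0). The heavy chains ran in the opposite order: H2-D1 was at 28.8 and 55.6 CPM, against 24.4 CPM in the control, and H2-K1 at 47.4 and 63.3 CPM, against 30.5 CPM. Psmb8 was at 7.01 and 18.1 CPM, against 1.94 CPM, and Tap1 at 0.813 and 8.70 CPM, against 1.35 CPM in the control. The light chain was thus highest in the Emx1-Cre mutant, and the heavy chains, Psmb8 and Tap1 in the hGFAP-Cre mutant.

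**Figure D4:**
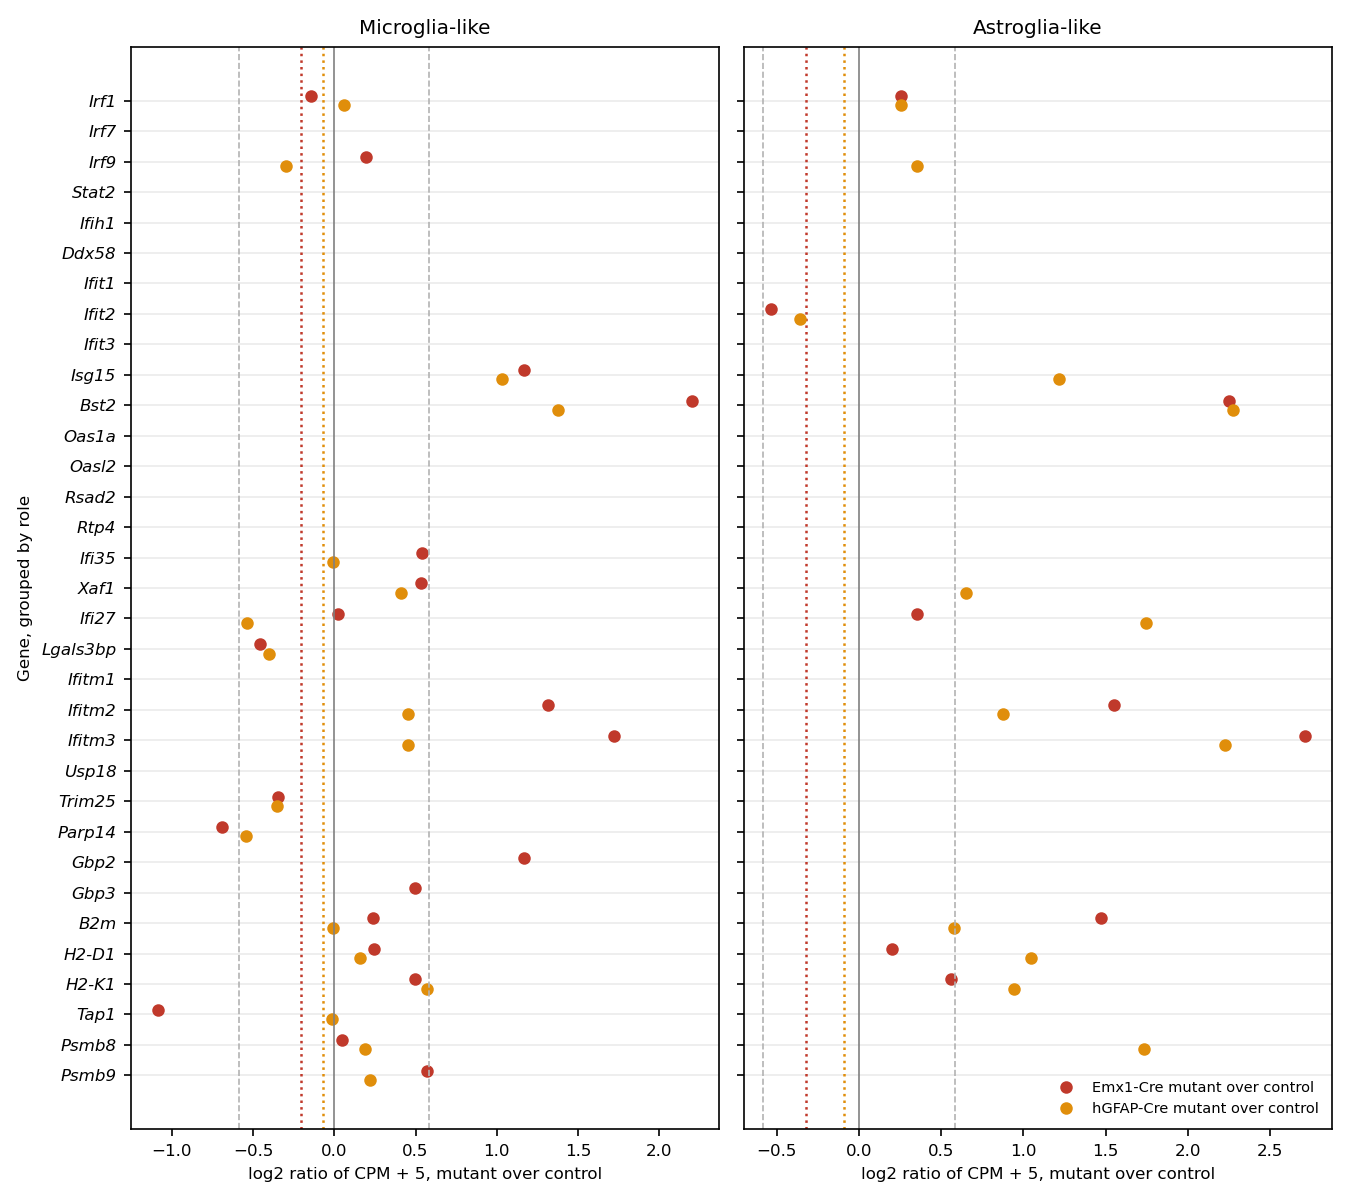
Log2 ratio of CPM + 5 of each mutant over the control, for the members measured, in microglia-like (left) and astroglia-like cells (right). Dashed lines mark 1.5-fold, dotted lines the median of all genes, which was -0.21 and -0.07 in microglia-like and -0.32 and -0.09 in astroglia-like cells for the Emx1-Cre and hGFAP-Cre mutants; Ifitm3, at 2.71 and 2.23 in astroglia-like cells, lies furthest right there.

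Different clusters made up the astroglia-like class in each library, which bears on all these values. The Emx1-Cre mutant had 56.7% of its astroglia-like cells in cluster 11, led by genes such as Has2 and Tagln, the hGFAP-Cre mutant 86.3% in cluster 4, which Prm1 marked, and the control 55.6% in cluster 9. A cycling cluster with Mki67, Aurkb and Ccna2 among its leading genes held 807, 184 and 549 cells and was the one best filled by all 3 libraries. There Ifitm3 was at 257 and 174 CPM in the Emx1-Cre and hGFAP-Cre mutants, against 14.7 CPM in the control, log2 ratios of 3.73 and 3.19. Ifitm2 was at 277 and 153 CPM, against 57.9 CPM, and Bst2 at 28.5 and 8.51 CPM, against 1.40 CPM in the control. B2m was at 64.6 and 43.0 CPM, against 30.4 CPM.

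Heavy chain genes and the remaining interferon response genes were mixed in this cycling cluster. H2-D1 was at 21.8, 24.2 and 24.0 CPM, and H2-K1 at 42.3 CPM in the Emx1-Cre mutant but 12.1 CPM in the hGFAP-Cre mutant, against 11.5 CPM in the control. The 23 interferon response genes other than Bst2 and the Ifitm genes summed to 54.0, 64.5 and 59.1 CPM, so the higher sum that the hGFAP-Cre mutant had over the whole class was not seen there. Of 7 members measured, 5 were higher and 1 lower in the Emx1-Cre mutant, against 7.22% and 25.2% of all genes, and 3 were higher and 0 lower in the hGFAP-Cre mutant, against 6.18% and 22.4%. In cluster 11, which held only 27 control cells, Ifitm3 was at 375.5 and 349 CPM in the Emx1-Cre and hGFAP-Cre mutants, against 83.2 CPM in the control. In cluster 9, Ifitm3 was at 116 CPM in the hGFAP-Cre mutant (79.0 to 165), against 63.7 CPM in the control. That cluster was well filled by the control but held only 46 cells of the hGFAP-Cre mutant. In cluster 4, which held most astroglia-like cells of the hGFAP-Cre mutant and 22 of the control, the mutant was not above the control for the Ifitm genes: Ifitm3 was at 221 CPM (213 to 230), against 245 CPM (176 to 333), and Ifitm2 at 193 CPM, against 233 CPM. Bst2 was at 36.5 CPM there, against no count in the control, and the interferon response sum at 621 CPM, against 557 CPM, a log2 ratio of 0.16 (-0.14 to 0.47). The 23 genes outside Bst2 and the Ifitm genes were above the control in cluster 4, at 171 CPM, against 77.8 CPM. Their log2 ratio was 1.13 (0.35 to 2.04) there, and 0.50, 0.70 and -0.40 in clusters 9, 11 and 21. The class I sum of cluster 4 was 204 CPM, against 89.8 CPM, a log2 ratio of 1.19 (0.46 to 2.03).

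Microglia markers were low in the astroglia-like class. The complement genes C1qa, C1qb and C1qc together were at 0.0747%, 0.0337% and 0.0502% of their microglia-like level in the Emx1-Cre, hGFAP-Cre and control libraries, while B2m was at 6.10%, 3.67% and 2.27% of its own. The 10 microglia markers summed to 26.1, 47.2 and 24.5 CPM in astroglia-like cells, with 10, 8 and 9 of the 10 seen. In microglia-like cells they summed to 13766, 17759 and 23404 CPM. Markers of other classes moved too: 9 endothelial markers summed to 29.5, 5.16 and 7.50 CPM, 9 mural markers to 93.2, 122 and 89.9 CPM and 8 ependymal markers to 23.1, 173 and 12.6 CPM. In the cycling cluster the mural markers summed to 79.5 and 74.3 CPM, against 23.4 CPM in the control. Their part in the member levels was not tested.

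Mural-like cells held the highest Ifitm levels, and both vessel classes held few cells. In endothelial-like cells (46, 57 and 103), Ifitm1 was at 128 CPM in the Emx1-Cre mutant and 225 in the hGFAP-Cre mutant, against 39.1 CPM in the control (29.9 to 50.2). Ifitm3 was at 449 and 495 CPM, against 224 CPM, and H2-K1 at 76.8 and 90.7 CPM, against 30.8 CPM in the control. Both mutants were above the control for these 3 genes, with intervals apart. Ifitm2 was at 205 and 186 CPM, against 107 CPM, and Bst2 at 202 and 147 CPM, against 108 CPM in the control. Isg15 was at 19.9 CPM in the Emx1-Cre mutant and 56.2 in the hGFAP-Cre mutant (36.7 to 82.3), against 17.3 CPM in the control (11.4 to 25.2). B2m was at 245, 199 and 252 CPM and H2-D1 at 225, 205 and 283 CPM, with no mutant above the control. Rsad2 was seen as 8 UMIs in the hGFAP-Cre mutant and 0 in the other 2 libraries, which puts it at least 8.98-fold above the control, taken at 3 counts. Of 26 members measured in the hGFAP-Cre mutant 12 were higher and 0 lower, against 16.6% and 15.3% of all 9056 genes. The hGFAP-Cre mutant's microglia markers in this class summed to 134 CPM, against 50.02 CPM in the control, and its 9 mural markers to 2046 CPM, against 1131 CPM; their part was not tested.

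Mural-like cells numbered 194 in the Emx1-Cre mutant, 80 in the hGFAP-Cre mutant and 37 in the control, so the control is thin. The 9 mural markers summed to 10165, 15735 and 20120 CPM, the 8 fibroblast markers to 2516, 1762 and 1722 CPM and the 9 endothelial markers to 265, 313 and 611 CPM; their part in the values below was not tested. Ifitm1 was at 957 and 1902 CPM, against 639 CPM in the control, and Ifitm3 at 1495 and 2555 CPM, against 1087 CPM. Irf1 was at 15.6 and 70.2 CPM, against 12.2 CPM, which is 3 UMIs in the control, and Bst2 at 115 and 93.6 CPM, against 44.8 CPM. H2-K1, Isg15 and Psmb8 had no count in the control: Isg15 was at 34.1 CPM in the Emx1-Cre mutant, at least 2.79-fold higher, and Psmb8 at 46.8 CPM in the hGFAP-Cre mutant, at least 3.83-fold higher, taking the control at 3 counts. H2-K1 was at 29.2 and 17.6 CPM, at least 2.39-fold and 1.44-fold higher by the same reckoning.

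The ependymal-like class, whose ciliated cells line the ventricle, had its own profile. Its control held only 32 cells, 29 of them in cluster 18, led by genes such as Ccno and Mcidas, and 3 in cluster 16, which held 653 of 1210 cells of the Emx1-Cre mutant and 204 of 387 of the hGFAP-Cre mutant. The 8 ependymal markers summed to 9158, 6892 and 5576 CPM, and their part was not tested. Bst2 was at 68.5 CPM in the Emx1-Cre mutant and 251 in the hGFAP-Cre mutant, against 7.40 CPM in the control, and Ifi27 at 84.0 and 159.5 CPM, against 18.5 CPM. Rsad2 reached 9.15 and 18.6 CPM in the mutants, against 1.85 CPM in the control, and Xaf1 58.5 and 45.6 CPM, against 20.4 CPM. The 23 genes outside Bst2 and the Ifitm genes summed to 222 and 339 CPM, against 118 CPM in the control.

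In oligodendrocyte lineage-like cells (275, 358 and 454) the class I genes were higher in the Emx1-Cre mutant. B2m was at 112 CPM there and 52.4 in the hGFAP-Cre mutant, against 26.9 CPM in the control, H2-D1 at 124 and 48.2 CPM, against 34.8 CPM, and H2-K1 at 53.9 and 13.2 CPM, against 10.7 CPM. Psmb8 was at 32.9 and 6.22 CPM, against 0.476 CPM. Ifitm2 ran the other way in the Emx1-Cre mutant, at 19.2 CPM, with 38.9 CPM in the hGFAP-Cre mutant, against 37.9 CPM in the control. The class was made of different cells in each library: cluster 20, led by genes such as Bcas1 and Pdgfra, held 271 of 275 cells of the Emx1-Cre mutant and 252 of 358 of the hGFAP-Cre mutant, but 66 of 454 of the control, most of whose cells were in cluster 24, led by genes such as Olig1 and Dll1. The 16 astroglia markers summed to 16302 CPM in the Emx1-Cre mutant and 7306 in the hGFAP-Cre mutant, against 6199 CPM in the control, and their part was not tested. Of 8 members measured in the Emx1-Cre mutant 6 were higher and 1 lower, against 22.2% and 18.5% of all genes, and of 7 in the hGFAP-Cre mutant 3 were higher and 0 lower, against 15.5% and 14.6%. Psmb8 was measured only because it passed 10 CPM in the Emx1-Cre mutant.

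Neurons held few members at 10 CPM or more. In projection neuron-like cells 2 members were measured, of which 0 were higher and 1 lower in the Emx1-Cre mutant, against 6.14% and 20.8% of all genes, and 0 and 0 in the hGFAP-Cre mutant, against 4.46% and 11.3%. In excitatory intermediate progenitor-like cells 0 of 4 were called in the Emx1-Cre mutant, against 9.16% higher and 19% lower among all genes, and 3 of 7 were higher in the hGFAP-Cre mutant, against 8.37%. In interneuron lineage-like cells 0 of 3 and 1 of 2 were higher, against 11.9% and 7.01%. Cajal-Retzius-like cells, early-born neurons of the cortical surface, held a steady Ifitm2 level of 543, 490 and 509 CPM, and 1 of 5 members was higher in each mutant, against 5.50% and 5.27%.

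The share of single cells with molecules of several members showed how broadly the genes were spread. In astroglia-like cells 64.8% of the Emx1-Cre mutant's cells (62.7 to 67.0, exact Clopper-Pearson interval) and 49.9% of the hGFAP-Cre mutant's (47.9 to 51.9) held UMIs of 3 or more members, against 32.6% in the control (30.8 to 34.5). With each cell thinned to 3000 UMIs the shares were 23.9% and 23.8%, against 5.17% in the control. In projection neuron-like cells, which should hold few of these genes, they were 0.685%, 1.25% and 2.11% unthinned, at a median depth of 3433, 3942 and 5745 UMIs per cell, while the astroglia-like medians were 7691, 5500 and 8567. In microglia-like cells 97.5%, 97.4% and 97.2% held 3 or more members, and 92.7%, 90.2% and 81.2% after thinning.

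**Figure D5:**
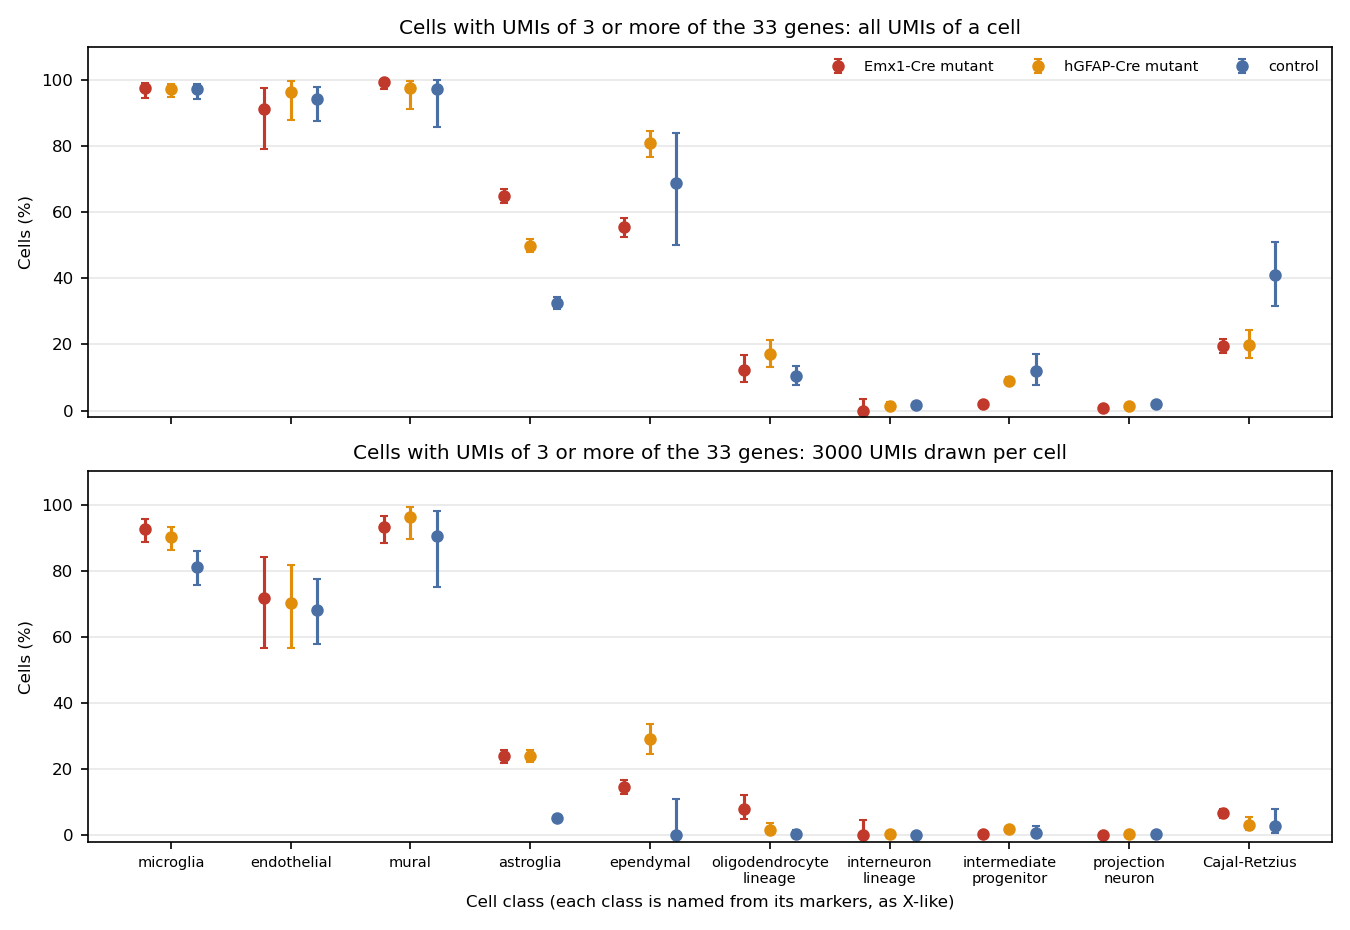
Percent of cells with UMIs of 3 or more of the 33 genes in each cell class, from all UMIs (top) and from 3000 UMIs drawn per cell (bottom), for the Emx1-Cre mutant, hGFAP-Cre mutant and control from left to right; bars are exact 95% intervals. In astroglia-like cells 64.8% and 49.9% of the mutants' cells stand above 32.6% in the control, and 23.9% and 23.8% above 5.17% after thinning.

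Bst2 UMIs were in 82.2% of microglia-like cells of the Emx1-Cre mutant and 80.1% of those of the hGFAP-Cre mutant, against 59.3% in the control; after thinning the Bst2 shares were 69.7%, 56.2% and 21.2%. In astroglia-like cells Bst2 UMIs were in 18.9% and 13.8% of the mutants' cells, against 2.15% in the control, and in projection neuron-like cells in 1.18%, 0.724% and 0.579%. After thinning the Bst2 shares of astroglia-like cells were 8.07% and 7.84% in the mutants, against 0.687% in the control, and those of projection neuron-like cells 0.718% and 0.306%, against 0.321%. Ifitm3 UMIs were in 69.4% and 49.1% of the mutants' astroglia-like cells, against 22.2% in the control, while in projection neuron-like cells the Ifitm3 shares were 0.707%, 0.390% and 0.475%. Over 10 scarcer members, such as Ifit1, Isg15 and Rsad2, cells with 3 or more were rare: 0.415%, 1.31% and 1.22% of microglia-like cells and 0 of 1917, 0.330% and 0.0796% of astroglia-like cells.

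Read beside the promoters shown above, the higher members in microglia-like cells that have an entry held this core. Of 14 such members 5 were higher in the Emx1-Cre mutant and 2 in the hGFAP-Cre mutant. Of 15 members with an entry and no match 0 were higher in either. Of all genes measured there, 11.3% and 10.2% were higher in the Emx1-Cre and hGFAP-Cre mutants. Here and below, the 14 and 15 count every member with an entry, measured or not, while the shares cover measured genes only. Isg15 and Gbp2, each at 2.36 CPM in the control, passed 10 CPM only through a mutant. At 10 CPM or more stood 7, 5 and 4 of the 14 members with a match in the Emx1-Cre, hGFAP-Cre and control libraries, and 10, 11 and 10 of the 15 without. In astroglia-like cells 4 of the 14 were higher in each mutant, and of the 15 without a match 0 in the Emx1-Cre mutant and 4 in the hGFAP-Cre mutant. Among these, Bst2 and Isg15 with a match, and Xaf1 and Psmb8 without, passed 10 CPM only through a mutant. The shares over all genes measured there were 6.99% and 10.4%. The same core is present in Ifit1 and Rsad2, which stayed under 2 CPM in both classes. Calls were not counted over all genes with the core, so a link between core and call was not tested.

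The genes around the members, in 7 further lists, showed no common direction in microglia-like cells; their counts are to be read against the shares over all genes, 11.3% higher and 27.5% lower in the Emx1-Cre mutant and 10.2% and 16.2% in the hGFAP-Cre mutant. Of 13 genes of the receptors and JAK-STAT signalling 11 were measured; in the Emx1-Cre mutant 0 were higher and 2 lower, among them Ifngr1, the interferon gamma receptor, at 274 CPM and 381 CPM in the hGFAP-Cre mutant, against 533 CPM in the control. None of the 9 interferon ligand genes reached 10 CPM. Of 16 genes of sensors and adaptors 10 were measured, with 0 higher and 4 lower in the Emx1-Cre mutant; Tmem173, the DNA-sensing adaptor STING, was at 10.8 and 11.5 CPM, against 32.4 CPM in the control. Of 6 interferon regulatory factors 4 were measured, with 0 higher and 2 lower; Irf8, a factor of macrophage identity, was at 215 and 246 CPM, against 360 CPM. Of 44 other interferon-induced genes 23 were measured, with 8 higher and 9 lower. Among the 8, Ifi44, Ifi203 and Mndal passed 10 CPM only through the mutant and so had to be called higher. Ifi44 was at 11.6 and 21.5 CPM, at least 11.4-fold and 21.2-fold above the control, which had no count, while Ly6e was at 60.1 and 69.6 CPM, against 222 CPM in the control. Of this last list 6 of 20 measured genes were higher and 6 lower in the hGFAP-Cre mutant. Of 17 further class I pathway genes 13 were measured, with 1 higher and 3 lower in each mutant; H2-T23, a non-classical class I gene, was at 39.3 and 35.3 CPM, against 94.2 CPM in the control, and H2-M3, another, at 37.7 and 38.0 CPM, against 18.6 CPM.

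In astroglia-like cells the same lists were mostly low, and the shares over all genes were 6.99% higher and 29.6% lower in the Emx1-Cre mutant and 10.4% and 14.2% in the hGFAP-Cre mutant. Of the receptors and JAK-STAT genes 8 were measured in the Emx1-Cre mutant, with 2 higher and 1 lower: Socs3, the feedback inhibitor of cytokine receptors, was at 179 CPM and 66.0 CPM in the hGFAP-Cre mutant, against 105 CPM in the control, and Stat3 at 77.2 and 43.3 CPM, against 46.7 CPM. In the hGFAP-Cre mutant 2 of 10 were higher, both chains of the interferon gamma receptor, with Ifngr1 at 22.7, 42.6 and 24.2 CPM and Ifngr2 at 30.6, 51.6 and 28.7 CPM in the Emx1-Cre, hGFAP-Cre and control libraries. Cxcl10, a chemokine induced by interferon, was at 10.9 and 12.96 CPM, against 0.317 CPM in the control. Of 17 further class I pathway genes 9 were measured in the hGFAP-Cre mutant, with 4 higher and 1 lower, among them Tap2, the partner chain of TAP1, at 8.45 and 20.2 CPM, against 5.75 CPM in the control. Of these genes 0 of 7 were higher and 2 lower in the Emx1-Cre mutant, among them the proteasome activator Psme1 at 60.9 and 145 CPM, against 129 CPM in the control.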

How the data were processed

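The authors deposited UMI counts without normalization for each gene and barcode, which came from Cell Ranger 5.0.0 per the file headers, on genome build mm10, per the submitters' processing notes. No step beyond these is given in the sources used here. Such counts are limited by depth and by free RNA captured with cells.

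Cells with at least 1000 genes and under 10% mitochondrial counts were kept, and doublets predicted by Scrublet in scanpy 1.11.5 (expected rate 10%) were removed, which took out 7.39% of Emx1-Cre, 8.42% of hGFAP-Cre and 4.53% of control barcodes. Barcodes reached down to 2644, 3065 and 500 UMIs. Clustering used 2000 variable genes, without the 33 members, 112 related genes and sex-linked, mitochondrial, ribosomal and haemoglobin genes, with 30 principal components, 15 neighbours and the Leiden method (leidenalg 0.10.2, resolution 1), and no batch correction. A cluster took the name of the list with most raised markers (2-fold, in 25% of cells), with 3 or more needed. It stayed unnamed where another list had more of the cluster's 10 leading genes, or where depth was low and no leading gene was on the list. With 15 marker lists 2 clusters stayed unnamed, and the larger had 7 of 16 astroglia markers raised. Within a class, the counts of a library's cells were added up and scaled to CPM with exact Poisson 95% intervals. Log2 ratios of single genes used a pseudocount of 5 CPM, and sums used none, with a conditional exact interval. Members were called at 10 CPM and 1.5-fold. The steps were tested on simulated data. Other software was scikit-learn 1.9.0, igraph 0.11.9, pandas 2.3.3, matplotlib 3.10.9, scipy 1.17.1 and numpy 2.4.6 under Python 3.11.15.

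The members and lists were chosen with earlier results of these data known. All 33 members were accounted for, with values named where a member was 1.5-fold apart with intervals apart in microglia-like, endothelial-like, mural-like or astroglia-like cells; other members named in the text, and those of the remaining classes, were named after their values were seen. Up to 4 genes of each related list were named by the same limits. Groups were taken from the labels, 1 library each, so no test was made and p-values are not given. A count of 0 was read as allowing up to 3 counts. Gene positions are GENCODE vM21 on GRCm38 and promoters RefSeq on GRCm38.p6. No protein sequence was used here. An item withheld for evaluation is not reported here.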

Additional observations from a re-analysis of the deposited data

How the results depend on the processing

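With 1 library per genotype, sex and sorting differ with genotype and cannot be told apart from it, and depth limits the genes under 10 CPM and the endothelial-like and mural-like classes. No paired analysis was possible because each genotype has 1 library. Of 209 values recomputed under other settings, 140 stayed within the counting interval or, for counts of members, within 1.5 times, 68 moved, and 1 that had been past 1.5-fold changed sign, while smaller ratios that changed sign are counted as moved; the cause was not tested. The values below are log2 ratios of summed genes over the control unless counts of members are named. None moved with cells under 5% mitochondrial counts. With at least 2000 genes per cell, antigen presentation in microglia-like cells of the Emx1-Cre mutant was -0.042 (0.25 before), and 1 member was higher in the hGFAP-Cre mutant. With doublets kept the same sum was 0.11 in Emx1-Cre and 0.014 in hGFAP-Cre mutant cells, where 2 members were lower, and the interferon response in the hGFAP-Cre mutant was 1.34 in astroglia-like and 0.71 in endothelial-like cells. At resolution 2 astroglia-like cells of the Emx1-Cre mutant had 1.61 for the interferon response and those of the hGFAP-Cre mutant 1.29 for antigen presentation.

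With cells thinned to 3000 UMIs the interferon response in microglia-like cells was 1.28 and 0.68 in the Emx1-Cre and hGFAP-Cre mutants, in astroglia-like cells 1.53 and 1.25, and in endothelial-like cells of the hGFAP-Cre mutant 0.52, with 4 members lower; microglia-like cells of the Emx1-Cre mutant had 0.40 for antigen presentation and 10 members higher. The median of all genes lay 0.21 and 0.32 below 0 in microglia-like and astroglia-like cells of the Emx1-Cre mutant; centred on it, they had 1.28 and 2.00 for the interferon response and 0.46 and 1.28 for antigen presentation, and microglia-like cells 10 members higher and 1 lower. Centred likewise, the hGFAP-Cre mutant had 0.20 for antigen presentation in microglia-like cells, and 1.49 and 1.29 for the 2 sums in astroglia-like cells. With a pseudocount of 1 CPM, 9 members were higher in microglia-like cells of the Emx1-Cre mutant, and 1 was lower in those of the hGFAP-Cre mutant and in astroglia-like cells of the Emx1-Cre mutant; with 20 CPM, 3 were higher and 1 lower in microglia-like cells of the Emx1-Cre mutant, and 1 and 7 were higher in microglia-like and endothelial-like cells of the hGFAP-Cre mutant. With all detected members, 5 and 14 were higher in microglia-like and astroglia-like cells of the hGFAP-Cre mutant, and 1 was lower in its endothelial-like cells and in astroglia-like cells of the Emx1-Cre mutant. Endothelial-like cells without microglia marker UMIs had 0.061 for antigen presentation in the hGFAP-Cre mutant, against -0.16 before, and 1 member lower.

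The next settings were chosen after seeing the data. In the shared clusters, microglia-like cells had -0.13 for antigen presentation in the Emx1-Cre mutant, with 3 members higher, and 4 higher and 1 lower in the hGFAP-Cre mutant; astroglia-like cells had 2.21 and 1.59 for the interferon response, 1 member lower in the Emx1-Cre mutant, and 0.30 for antigen presentation with 3 members higher in the hGFAP-Cre mutant. With the largest unnamed cluster joined, astroglia-like cells of the hGFAP-Cre mutant had 1.56 for the interferon response. Without Bst2, Ifitm1, Ifitm2 and Ifitm3, the interferon response was 0.042 and -0.21 in microglia-like cells of the Emx1-Cre and hGFAP-Cre mutants, -0.11 and 0.96 in astroglia-like cells, and 0.44 in endothelial-like cells of the hGFAP-Cre mutant. The share of cells with 3 or more members was, after thinning, 92.7%, 90.2% and 81.2% in microglia-like and 23.9%, 23.8% and 5.17% in astroglia-like cells of the Emx1-Cre, hGFAP-Cre and control libraries. With 2 or more members the astroglia-like shares were 86.7%, 74.2% and 59.1%. Over 10 scarce members the shares were 0.415%, 1.31% and 1.22% in microglia-like and 0%, 0.330% and 0.0796% in astroglia-like cells.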

Other observations

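The MHC class II genes, which present peptides taken up from outside the cell and are known as a trait of professional antigen-presenting cells, were in part far higher in microglia-like cells of the Emx1-Cre mutant. The class II chain genes H2-Aa and H2-Eb1 were at 149 and 129 CPM there and at 9.16 and 8.24 CPM in the hGFAP-Cre mutant, with no count in the control, so that the Emx1-Cre mutant was at least 147-fold and 128-fold higher, taking the control at 3 counts. Cd74, the chaperone of class II molecules, was at 203 and 39.8 CPM, against 18.9 CPM in the control, and H2-Ab1 at 79.3 and 12.8 CPM, against 13.5 CPM. Of 7 genes of this list 6 were measured in the Emx1-Cre mutant, with 4 higher and 0 lower, against 11.3% and 27.5% of all genes, and 4 in the hGFAP-Cre mutant, with 1 higher and 2 lower, against 10.2% and 16.2%. H2-Aa and H2-Eb1 passed 10 CPM only through the Emx1-Cre mutant. H2-DMa was at 93.2 and 29.8 CPM, against 80.03 CPM in the control. In the second microglia-like subcluster, which had 0 control cells, H2-Aa was at 217.5 CPM in the Emx1-Cre and 33.9 CPM in the hGFAP-Cre mutant, and in the subcluster that all libraries share at 65.0 CPM in the Emx1-Cre mutant, with no count in the other 2 libraries. Over the whole class the border macrophage markers, given beside the microglia-like results, ran in the same order of libraries as H2-Aa, H2-Eb1 and Cd74. Within the Emx1-Cre mutant they were at 935 CPM in the second subcluster and 1580 CPM in the shared one, opposite to H2-Aa. Markers of other leukocytes were at 105 CPM in the second subcluster of the Emx1-Cre mutant and 232 CPM in that of the hGFAP-Cre mutant. In the shared subcluster they were at 5.74 and 3.85 CPM. Within each mutant they were thus higher in the second subcluster, like H2-Aa. Between the mutants, in the second subcluster, they ran opposite to H2-Aa. The part of either marker list was not tested.

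Astroglia-like cells held class II genes at lower levels. H2-Ab1 was at 33.6 CPM in the Emx1-Cre mutant and 9.16 in the hGFAP-Cre mutant, against 2.74 CPM in the control, and H2-Eb1 at 27.7 and 7.80 CPM, against 1.03 CPM. H2-DMa, which loads peptides, was at 19.0 and 5.48 CPM, against 2.30 CPM, and 4 of 4 genes measured were higher in the Emx1-Cre mutant, against 6.99% of all genes. All 4 passed 10 CPM only through that mutant. With control levels this low, a gene that passed had to be called higher, so the count adds nothing to the levels. In cluster 11, where H2-Ab1 was among the leading genes, it was at 48.8 and 98.6 CPM in the Emx1-Cre and hGFAP-Cre mutants, against 25.3 CPM in 27 control cells. In the cycling cluster it was at 19.7 and 1.34 CPM, against 0.466 CPM in the control. The microglia markers are given beside the astroglia-like results, and Cd74 was at 4.33%, 12.9% and 2.52% of its microglia-like level. The part of microglia RNA in these values was not tested.

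The largest unnamed cluster held 148, 839 and 11 cells of the Emx1-Cre, hGFAP-Cre and control libraries, with Bst2 at 24.8 and 89.7 CPM and no count in the control, and Ifitm3 at 164 and 372 CPM, against 175 CPM in the control.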
